A study of Mus musculus with 4 samples.

Results

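Crabp1, Crabp2, Fabp5, Aldh1a3 and Adh7 were followed by their symbols through every cell class of 4 single-cell RNA libraries of mouse gingiva (gum). These 5 genes, out of 32245 symbols counted, were chosen by their roles in retinoid and fatty acid handling and with earlier results of the same libraries known, among them the low Crabp1 level in diseased against healthy gingiva. Their differences between libraries are therefore given as description. Crabp1, Crabp2 and Fabp5 encode small binding proteins, and Adh7 and Aldh1a3 encode enzymes.

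Epithelial cells take up vitamin A as retinol and oxidise it first to retinaldehyde and then to retinoic acid, which enters the nucleus and switches genes on through the RAR and RXR receptors. ADH7 is an alcohol dehydrogenase of stomach and other surface epithelia that can oxidise retinol, and ALDH1A3 oxidises retinaldehyde to retinoic acid. CRABP1 and CRABP2 hold retinoic acid in the cell; CRABP2 is known for passing it to RAR, and CRABP1 has been linked to its breakdown and to signalling in the cytosol. FABP5 carries long-chain fatty acids, is abundant in the epidermis, and can pass retinoic acid to the receptor PPARD. Retinoic acid is known for steering stratified epithelia between keratinized and soft, non-keratinized forms.

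Each group was 1 library: gingiva with disease and metformin, gingiva with disease, gingiva with metformin, and healthy gingiva. Metformin is a glucose-lowering drug, and the study asked what it does to gingiva with a view to preventing periodontal disease. The tissue was cut from around the upper teeth and digested with collagenase and DNase before droplet capture. The sources used here do not give the strain, age or number of mice, how disease was brought about, or metformin's dose and time. With 1 library a group there was no replicate check, no test was made, and every interval below is an exact 95% interval that covers counting error only.

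UMIs, the molecular tags that let each captured RNA be counted 1 time, totalled 13025479 with disease and metformin, 14151700 with disease, 22333858 with metformin and 12507787 in healthy gingiva. After filtering, 1654, 1692, 2476 and 1307 cells remained in that order of libraries, 7129 of 8295 barcodes, and 4 barcodes occurred in more than 1 library. Of 24 clusters, 10 were keratinocyte-like by their keratins and held 52.9% of the cells, 3 were gland-like, and 3 stayed unnamed. A level is given as CPM, a gene's share of all UMIs of the cells named on the usual sequencing scale, where 10000 CPM is 1% of the UMIs. Keratinocyte-like cluster 2 held only 367 cells, but at a median of 22012 UMIs a cell it supplied 61.4% of keratinocyte-like UMIs with disease and metformin, 72.4% with disease, 57.0% with metformin and 75.9% in healthy gingiva. Each comparison is therefore also given inside that cluster and without it. Keratinocyte-like cells with no mitochondrial UMI made up 59.2% of that class with disease and metformin, 31.03% with disease, 48.2% with metformin and 45.5% in healthy gingiva.

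On mouse build GRCm38 the members are protein-coding genes. Adh7 (ENSMUSG00000055301) lies at chr3:138217760-138233382 on the plus strand with 9 exons, and Aldh1a3 (ENSMUSG00000015134) at chr7:66390890-66427517 on the minus strand with 13 exons. Crabp1 (ENSMUSG00000032291) lies at chr9:54764748-54773110, Crabp2 (ENSMUSG00000004885) at chr3:87948666-87953376 and Fabp5 (ENSMUSG00000027533) at chr3:10012548-10016607, all on the plus strand with 4 exons. The genome holds 5 processed pseudogenes of Fabp5, up to 98.3% identical to it and none of them among the counted genes, so reads shared with them make Fabp5 counts less certain. An antisense gene, 0610031O16Rik, overlaps Adh7 and had 11 UMIs in the kept cells; whether counting used strand was not stated.

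The promoters of Crabp1 and Adh7, the 2 members matched in the RefSeq promoter table used, are shown beside their levels, which were both highest in healthy gingiva within cluster 2. They are the 250 bases before each RefSeq start on GRCm38.p6, plus strand, at chr9:54764498-54764747 and chr3:138217523-138217772. Capitals mark every GGGCGG, the GC box letters, on either strand in Crabp1, and TGANTCA, the AP-1 letters, in Adh7.
Crabp1: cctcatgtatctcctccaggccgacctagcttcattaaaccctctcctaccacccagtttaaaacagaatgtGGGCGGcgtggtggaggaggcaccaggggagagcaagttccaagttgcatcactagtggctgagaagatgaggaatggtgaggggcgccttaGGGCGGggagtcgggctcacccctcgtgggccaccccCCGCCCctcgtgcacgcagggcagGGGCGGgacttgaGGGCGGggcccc
Adh7: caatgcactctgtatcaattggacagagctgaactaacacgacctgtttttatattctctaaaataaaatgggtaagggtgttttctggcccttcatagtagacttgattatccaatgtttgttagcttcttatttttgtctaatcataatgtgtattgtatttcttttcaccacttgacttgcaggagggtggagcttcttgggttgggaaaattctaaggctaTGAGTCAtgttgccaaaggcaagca
Crabp1's window is 63.6% G and C and holds 5 GGGCGG matches, 4 on the plus and 1 on the minus strand, between 12 and 178 bases before the start. Adh7's window is 38% G and C, with 1 TGANTCA 25 bases before the start and 1 TATAAA on the minus strand at 202 bases. Neither holds AGGTCA, the letters bound by retinoic acid and related receptors. Of 32851 mouse promoter windows of the same 250 bases, read on both strands, 32.7% hold GGGCGG, 6.75% TGANTCA, 12.4% TATAAA and 14.0% AGGTCA, and the median window is 52.4% G and C. TGANTCA was searched after Adh7's sequence had been read, and a match here is a description of letters, not a site.

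Adh7, the retinol-oxidising alcohol dehydrogenase, was counted mostly in keratinocyte-like cells: 93.5% of its 2272 UMIs lay in keratinocyte-like cells, 1.98% in fibroblast-like and 0.572% in gland-like cells. Cluster 2 held 56.6% of them and cluster 19, led by Krt4, Krt13 and Serpinb12, held 22.7%. By level the order was cluster 19 at 245 CPM (224 to 267), cluster 13, led by H19 and Barx2, at 139, cluster 17, led by Krt6b and Krt10, at 104, cluster 2 at 78.5, and cluster 9, led by Krt76 and Krt16, at 56.1 CPM. Cluster 19 was clear of cluster 13 and cluster 2 of cluster 9, while the intervals of clusters 13 and 17 and of clusters 17 and 2 overlapped. This order over summed libraries did not hold within each library. In healthy gingiva cluster 2 (136 CPM) stood above clusters 13 (107) and 17 (45.4). The latter rest on 8 and 3 UMIs, and their intervals overlapped that of cluster 2. With disease and metformin cluster 9 (119 CPM, 27 UMIs) stood above cluster 2 (41.8 CPM, 95 UMIs). The fibroblast-like cluster stood at 45.8 CPM, above keratinocyte-like clusters 8 (27.5), 7 (20.7) and 6 (9.96), and the 3 gland-like clusters at 0.470 to 2.01 CPM. An Adh7 UMI was seen in 15.1% of keratinocyte-like and 0.883% of gland-like cells, and in 6.55% and 0.0909% after each cell was thinned to 1000 UMIs. Thinning left out the 248 keratinocyte-like cells with disease and metformin, 406 with disease, 369 with metformin and 260 in healthy gingiva that had fewer UMIs than that, and 259 gland-like cells in all.

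Aldh1a3, the retinaldehyde dehydrogenase, lay mostly outside the keratinocytes, with 15.0% of its 213 UMIs in keratinocyte-like cells and 79.8% in unnamed cluster 12, led by Wfdc18, Ltf and Acta2. Cluster 6, led by Odam, Sprr2d and Psca, stood at 79.7 CPM (51.1 to 119) and cluster 12 at 66.7 CPM, with overlapping intervals. Odam encodes a protein known from the junctional epithelium, where gum meets tooth. The fibroblast-like cluster came next at 7.13 CPM, and 17 clusters held no UMI of Aldh1a3. Cluster 19 was at 0 of its 2101209 UMIs, which allows up to 1.76 CPM. The gene was found in 35 cells in all, and 2 of them held 50% or more of its UMIs.

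Crabp1 was spread over several classes: 60.3% of its 818 UMIs were in keratinocyte-like cells, 25.4% in unnamed cluster 12, 11.2% in fibroblast-like and 1.10% in gland-like cells. The fibroblast-like cluster was at 93.7 CPM (75.6 to 115), cluster 12 at 81.7, cluster 13 at 65.8 (38.3 to 105), S-phase cluster 5 at 28.4 and cluster 2 at 24.2 CPM. Each of these overlapped its neighbour in the order. The order rests on summed libraries: cluster 12 was at 11.0 CPM with disease and metformin, 2.42 with disease, 8.96 with metformin and 611 CPM in healthy gingiva. There 1 barcode, led by S100a5, Gng13 and Scgb1c1, held 143 of the cluster's 208 UMIs. Another, led by Thsd7b, Lhx2 and Sox11, held 37, and which cell types these barcodes are was not tested. In healthy gingiva cluster 13 (147 CPM) and cluster 5 (104 CPM) also stood above the fibroblast-like cluster (89.4 CPM). These rest on 11, 16 and 11 UMIs, and their intervals overlapped. Cluster 7, led by Krt15, Gpha2 and Cxcl14, stood at 0.669 CPM, and cluster 17 held no Crabp1 UMI, which allows up to 6.76 CPM. Crabp1 was itself a leading gene of cluster 13 among keratinocyte-like clusters, so its level there may have helped to define that cluster, which was not tested.

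Crabp2, which delivers retinoic acid to its receptor, was found mainly in keratinocyte-like cells: 90.1% of its 1379 UMIs were in keratinocyte-like cells with 49.96% in cluster 19, 29.2% in cluster 2 and 4.71% in cluster 17. Of 11 markers of the keratinized suprabasal layer 7 were raised in cluster 19, 7 in cluster 17 and 1 in cluster 2, and of 8 soft-mucosa markers 5, 4 and 1 were raised in these clusters. Cluster 19 reached 328 CPM (304 to 353) and cluster 17 reached 119 CPM (91.9 to 152), and both stood clear of every cluster below them. Clusters 12, 6, 13, 2 and 9 followed between 36.9 and 22.28 CPM. Cluster 7 stood at 4.68 CPM, the fibroblast-like cluster at 8.15 CPM, and the gland-like clusters at 0 to 0.950 CPM.

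Fabp5, the fatty acid carrier, was counted 117784 times, 95.5% of it in keratinocyte-like cells. It was highest in the clusters led by suprabasal keratins: 16725 CPM in cluster 17, 16245 in cluster 19 and 7324 in cluster 9, against 3224 in cluster 2, 1273 in cluster 8, led by Wfdc18 and Ttn, and 798 in cluster 7. Of these, clusters 17 and 19 had overlapping intervals. After thinning to 1000 UMIs, 98.1% of cluster 17, 95.7% of cluster 19, 96.8% of cluster 9 and 43.3% of cluster 7 held a Fabp5 UMI. Among gland-like cells the share was 3.64%. Unthinned, 72.3% of keratinocyte-like and 16.2% of gland-like cells held one, at median depths of 1539.5 and 8400 UMIs. Unnamed clusters 23 and 10, in which keratinocyte and gland markers were raised together, stood at 1806 and 1206 CPM. The metformin library held 160 of the 171 Fabp5 UMIs of cluster 23 and 2479 of the 2987 of cluster 10. Endothelial-like cluster 16 stood at 1137 CPM, with 165 of its 205 UMIs in healthy gingiva. The fibroblast-like cluster stood at 179 CPM, and gland-like clusters 0, 14 and 1 at 11.0, 66.5 and 112 CPM.

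**Figure D1:**
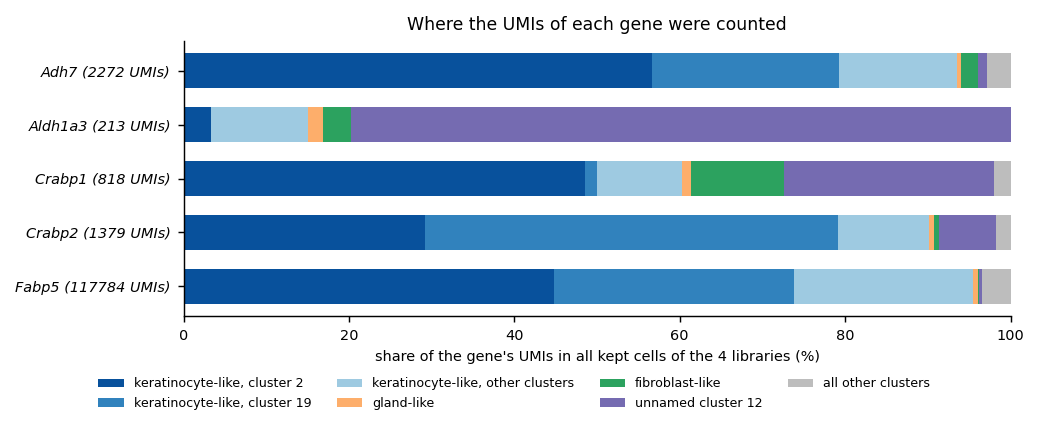
Stacked bars give, for each of the 5 genes, the percent of its UMIs held by keratinocyte-like cluster 2, cluster 19, the other keratinocyte-like clusters, gland-like, fibroblast-like, unnamed cluster 12 and all other cells, over the 4 libraries. Keratinocyte-like cells hold 93.5% of Adh7, 90.1% of Crabp2 and 95.5% of Fabp5 UMIs, and cluster 12 holds 79.8% of Aldh1a3.

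**Figure D2:**
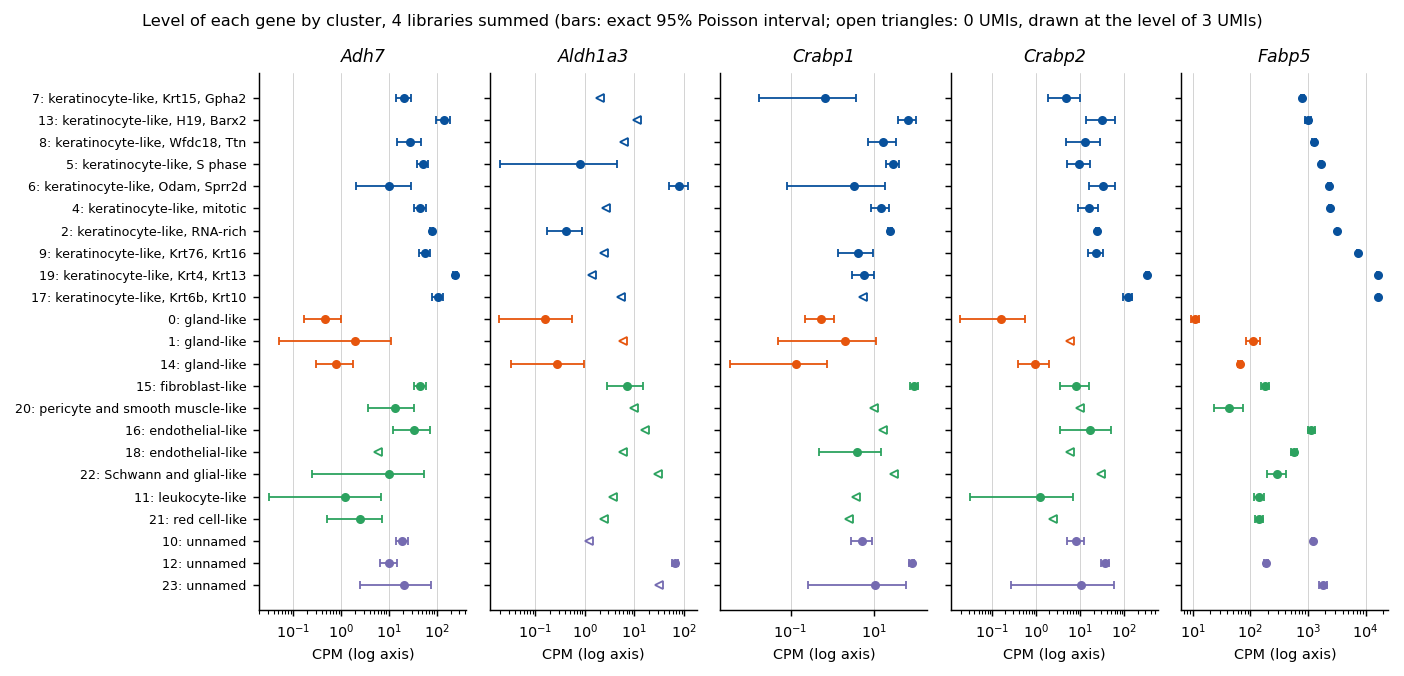
Points give the level of each gene in CPM, on a log axis, in the 23 clusters of at least 20 cells, with exact 95% Poisson intervals; an open triangle marks 0 UMIs at the level that 3 UMIs would have. Crabp2 and Fabp5 are high in clusters 17 and 19, Aldh1a3 in clusters 6 and 12, and Crabp1 in fibroblast-like cluster 15 and clusters 12 and 13.

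Across the 23 clusters, Crabp2 and Adh7 had a Pearson correlation of 0.80 in log2(CPM + 10), Crabp2 and Fabp5 of 0.77 and Fabp5 and Adh7 of 0.77. All other pairs of members lay between -0.14 and 0.41. The clusters share libraries and differ in depth, so these values describe the clustering. The genes most like Adh7 in this measure were Nqo1 (0.892), Capns2, Paqr5, Ces1h and Krt13. Those most like Crabp2 were Sbsn (0.932), Sult2b1, Pinlyp, Hsd17b2 and Sdr16c5, an epidermal retinol dehydrogenase. Those most like Fabp5 were Krtdap (0.937), Gm94, Car13, Capns2 and Aqp3, the water and glycerol channel of keratinocytes. Those most like Aldh1a3 were Cldn4 (0.965), Psca, Calcb, Wdr72 and Plb1, and those most like Crabp1 were Sfrp1 (0.832), Fbln1, Nrg2, Gas1 and Gm15867.

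Among the 4 libraries Crabp1 was by far the most uneven member in keratinocyte-like cells. It stood at 9.98 CPM with disease and metformin (37 UMIs in 22 cells), 15.8 with disease (103 in 38), 3.71 with metformin (38 in 28) and 67.4 CPM in healthy gingiva (315 in 59). The healthy library was highest and the metformin library lowest, and no pair of intervals overlapped except those of disease and metformin with disease. Of the 315 healthy UMIs, single cluster 2 barcodes held 47, 32, 30, 27, 26, 21 and 17, so these intervals are too narrow. Inside cluster 2 the values were 9.23, 18.03, 3.77 and 75.8 CPM in the same order of libraries. Without cluster 2 they were 11.2, 10.0, 3.64 and 40.9 CPM, so healthy gingiva was highest and metformin lowest on each scale. In S-phase cluster 5 Crabp1 stood at 39.8 CPM with disease and metformin, 10.7 with disease, 14.2 with metformin and 104 CPM in healthy gingiva, and in mitotic cluster 4 at 9.74, 18.4, 3.71 and 57.9 CPM, from at most 16 UMIs a library, with healthy gingiva highest in both. A Crabp1 UMI was seen in 3.06%, 3.46%, 2.23% and 8.42% of keratinocyte-like cells, again in that order, and in 0.638%, 0.866%, 0.113% and 2.95% after thinning, against 0.515% of unthinned gland-like cells. The thinned shares rest on 1 to 13 cells a library.

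Crabp2 was highest with metformin. Keratinocyte-like cells held 31.6 CPM with disease and metformin, 50.5 with disease, 60.4 with metformin and 38.3 CPM in healthy gingiva, from 117, 329, 618 and 179 UMIs. In cluster 19, where the gene was concentrated, the level was 115 CPM with disease and metformin, 453 with disease, 333 with metformin and 279 CPM in healthy gingiva. There the disease library was highest and the disease plus metformin library lowest, with 23 UMIs against 60 to 442 in the others. Inside cluster 2 the levels were 30.8, 28.6, 15.6 and 29.9 CPM in the same order, so the metformin library, highest over all keratinocyte-like cells, was lowest there. The metformin library also had the largest share of cluster 19, at 13.0% of keratinocyte-like UMIs against 5.37% with disease and metformin, 5.55% with disease and 4.60% in healthy gingiva. In that library 1 barcode of cluster 19 held 119 Crabp2 UMIs, 18.4% of the library's.

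Fabp5 differed least over all keratinocyte-like cells, at 4277 CPM with disease and metformin, 3619 with disease, 5178 with metformin and 4287 CPM in healthy gingiva. A UMI was seen in 72.0%, 70.8%, 73.9% and 72.2% of cells, and in 64.3%, 61.5%, 63.3% and 65.8% after thinning. In cluster 19 it stood at 9730.1 CPM with disease and metformin, 14018 with disease, 17538 with metformin and 18059.5 CPM in healthy gingiva, lowest with disease and metformin. In cluster 17 the values were 13746, 20571, 16427 and 16495 CPM, in cluster 9 7217, 8211, 6539 and 9416 CPM, and in cluster 7 681, 1138, 689 and 794 CPM, all in that order of libraries. Healthy gingiva was highest in clusters 19 and 9 and disease in clusters 17 and 7. In cluster 19 healthy gingiva was not clear of metformin (log2 ratio of metformin over healthy gingiva -0.04, -0.09 to 0.01). There 1 barcode held 6959 of the 23245 Fabp5 UMIs of the metformin library.

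Adh7 stood at 87.4 CPM with disease and metformin, 87.2 with disease, 63.9 with metformin and 124 CPM in healthy gingiva, over all keratinocyte-like cells. Inside cluster 2 the levels were 41.8, 86.1, 52.1 and 136 CPM, with healthy gingiva highest and disease with metformin lowest. In cluster 19 they were 889 CPM with disease and metformin, 252 with disease, 146 with metformin and 247 CPM in healthy gingiva. The disease plus metformin library was thus lowest in cluster 2 and highest in cluster 19, where 177 UMIs were counted in 59 cells. Of those, 36 and 29 UMIs came from 2 barcodes with Krt1, Krt17 and Krt75 among their leading genes.

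Aldh1a3 had too few keratinocyte-like UMIs to order the libraries: 6 in 1 cell with disease and metformin, 16 in 3 cells with disease, 6 in 6 cells with metformin and 4 in 4 cells of healthy gingiva. All 6 with disease and metformin, all 16 with disease, none with metformin and 2 in healthy gingiva were in Odam-led cluster 6, which had 14, 41, 39 and 11 cells in these libraries. The cells of that cluster with metformin held 0 UMIs, where 3 UMIs would give 31.7 CPM.

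**Figure D3:**
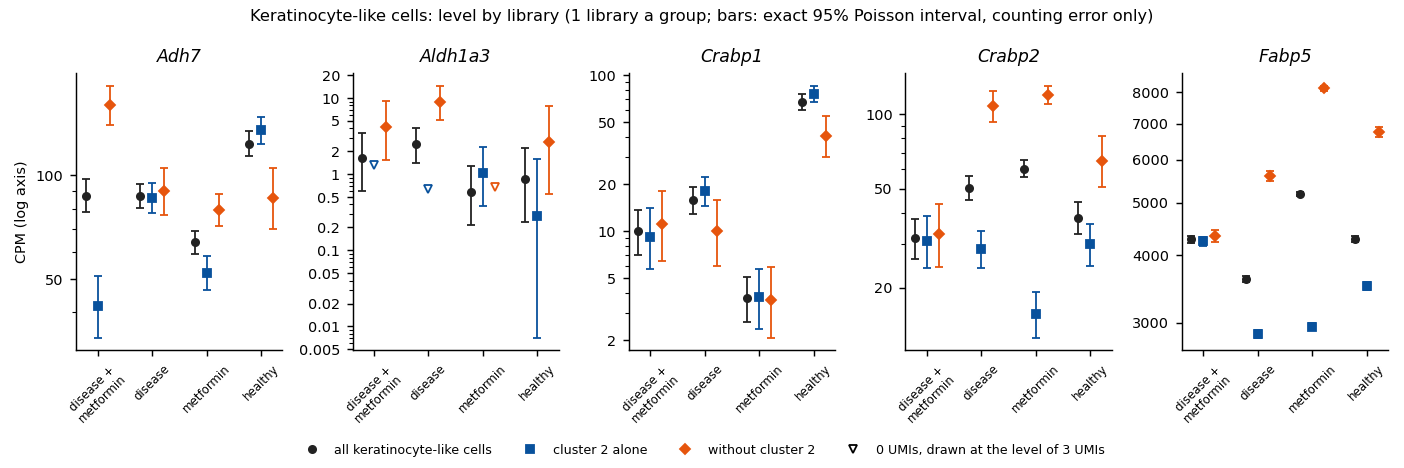
Points give CPM, on a log axis, in each library over all keratinocyte-like cells (circles), cluster 2 alone (squares) and without cluster 2 (diamonds), with exact 95% Poisson intervals; open triangles mark 0 UMIs at the level of 3 UMIs. Crabp1 is highest in healthy gingiva in all 3 scopes, and Crabp2 and Fabp5 are higher without cluster 2 than inside it in each library.

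With metformin over healthy gingiva, keratinocyte-like Crabp1 was 18.1-fold lower (log2 ratio -4.18, -4.71 to -3.69), Adh7 1.93-fold lower (-0.95, -1.12 to -0.79) and Crabp2 1.58-fold higher (0.66, 0.41 to 0.91). Fabp5 differed by 0.27 on the log2 scale. Of the 4 members with at least 20 UMIs over both libraries, 1 was at least 1.5-fold higher, as were 5.61% of all 12036 genes measured, and 2 were lower, as were 21.6%. The median gene had a log2 ratio of -0.22 here. With each library given the same cluster makeup, Crabp2 was at -0.048. Inside cluster 2 Crabp1 was at -4.33, Adh7 at -1.38 and Crabp2 at -0.94. Without that cluster they were at -3.49, -0.12 and 0.88, so Crabp2 lay on opposite sides of 0 in these scopes, and Adh7 was near 0 outside cluster 2.

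With disease over healthy gingiva, Crabp1 was 4.26-fold lower (-2.09, -2.43 to -1.77), at -2.07 inside cluster 2 and -2.03 without it. Adh7 was 1.42-fold lower (-0.50), at -0.65 inside cluster 2 and 0.06 without it. Crabp2 was at 0.40 (0.13 to 0.67), but at -0.06 inside cluster 2, 0.73 (1.66-fold higher) without it and 0.70 in cluster 19. Fabp5 was at -0.24, with -0.29 inside cluster 2 and -0.27 without it, and Aldh1a3 at 1.52 with an interval from -0.11 to 3.56. Of the 5 members over all keratinocyte-like cells, 1 was at least 1.5-fold higher against 7.08% of 11714 measured genes, and 1 lower against 6.49%. The higher one is Aldh1a3, with 16 against 4 UMIs; its ratio ran from -0.47 to 1.93 over the alternatives, and 8 of them lost the call, 2 below 1.5-fold higher and 6 under the minimum of UMIs. The lower one is Crabp1.

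Crabp2 was 1.60-fold lower with disease and metformin over disease (-0.68, -0.995 to -0.370); it stood at 0.10 inside cluster 2, -1.72 without it and -1.97 in cluster 19. Krt4, a keratin of soft mucosa and a leading gene of cluster 19, stood at 290 CPM with disease and metformin and 1590.4 CPM with disease over all keratinocyte-like cells, and its part in the Crabp2 difference was not tested. Crabp1 was 1.58-fold lower (-0.66, -1.25 to -0.11), but at 0.16 without cluster 2. Adh7 stood at 0.00 as the sum of unlike parts: -1.04 inside cluster 2, 0.83 without it and 1.82 in cluster 19. Fabp5 was at 0.24 over all keratinocyte-like cells, 0.57 inside cluster 2 and -0.37 without it. Of the 5 members none was at least 1.5-fold higher, against 3.92% of 11511 genes, and 3 were lower, Aldh1a3 with 22 UMIs among them, against 13.4%. None of the 3 passed 1.5-fold when libraries were scaled by TMM or DESeq2 factors.

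Crabp1 was 2.69-fold higher with disease and metformin over metformin (1.43, 0.73 to 2.12), Adh7 1.37-fold higher (0.45, 0.26 to 0.65) and Crabp2 1.91-fold lower (-0.94, -1.23 to -0.65). Fabp5 was at -0.28. Inside cluster 2 Crabp1 was at 1.29, Adh7 at -0.32 (-0.67 to 0.02), Crabp2 at 0.98 and Fabp5 at 0.52. Without that cluster they were at 1.62, 1.01, -1.87 and -0.91 in the same order. Adh7, Crabp2 and Fabp5 thus lay on opposite sides of 0 in these scopes. Of 4 members, 1 was at least 1.5-fold higher against 8.91% of 11896 genes, and 1 lower against 6.70%. In cluster 19 Adh7 was 6.07-fold higher (2.60), and Crabp2 (-1.53) and Fabp5 (-0.85) were lower. Comparisons that share a library, such as the first and second given here, are not independent of each other.

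**Figure D4:**
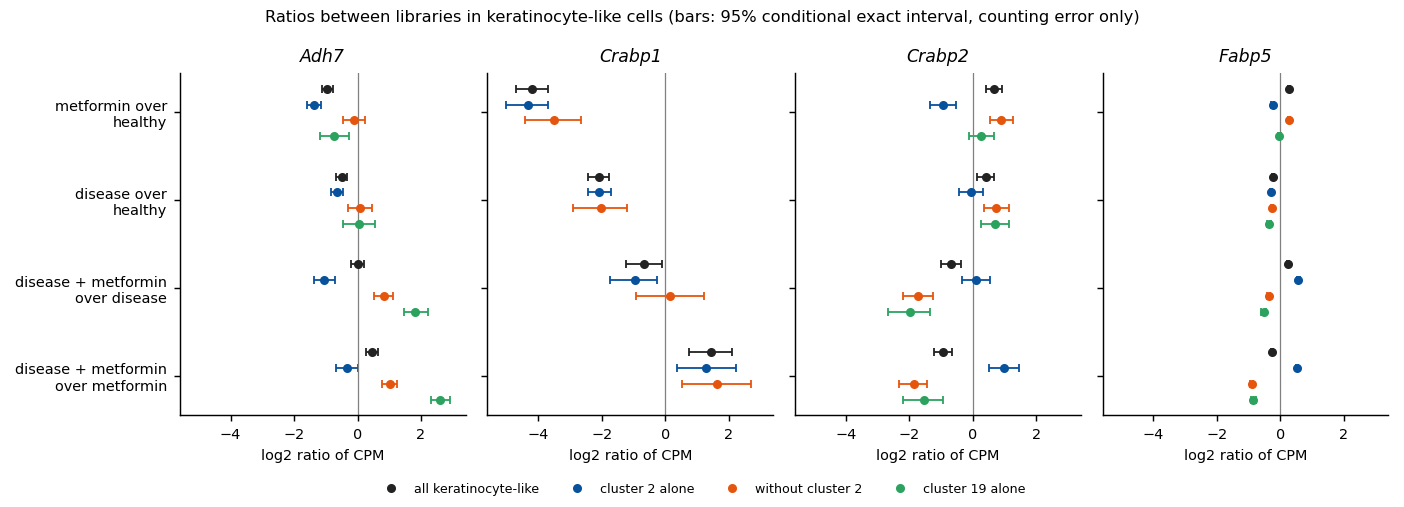
Points give log2 ratios of CPM with exact 95% intervals for Adh7, Crabp1, Crabp2 and Fabp5 in the 4 comparisons, over all keratinocyte-like cells, cluster 2 alone, without cluster 2, and cluster 19 (not for Crabp1, with too few UMIs there). Crabp1 stays below 0 with metformin and with disease over healthy gingiva in the pooled scopes, and Adh7 with disease and metformin over disease lies on opposite sides of 0 in clusters 2 and 19.

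Values over all kept cells also hold the makeup of the libraries, and fewer cells of a type and less RNA per cell cannot be told apart there. With metformin over healthy gingiva, 2 of 5 members were at least 1.5-fold higher (Crabp2 and Fabp5) against 9.59% of genes, and 2 lower (Crabp1 and Aldh1a3) against 11.0%. With disease over healthy gingiva, Crabp2 and Aldh1a3 were higher against 15.3%, and Crabp1 lower against 6.31%. Crabp2 (0.64) fell short of 1.5-fold under TMM (0.50) and DESeq2 scaling (0.49), and Aldh1a3 (2.24) with every cell weighted equally (0.35). Between disease with metformin and disease, none was higher against 8.38%, and 4 of 5, all but Fabp5, were lower against 24.7%. Adh7 (-0.69) fell short of 1.5-fold under TMM (-0.48) and DESeq2 scaling (-0.45), and Crabp1 (-1.59) with every cell weighted equally (-0.33). In disease with metformin over metformin, Aldh1a3 was higher against 11.6%, and Crabp2 and Fabp5 lower against 15.5%. Aldh1a3 rested on 14 against 10 UMIs (1.19, -0.09 to 2.52). Over the alternatives Aldh1a3 ran from 0.52 to 3.74 and Crabp2 from -1.85 to -0.55, and both fell short of 1.5-fold at the weaker end. Gland-like cells, which held under 2% of each member's UMIs, made up 30.9% of cells with disease and metformin, 13.8% with disease, 11.6% with metformin and 25.02% in healthy gingiva. These shares leave out unnamed cluster 10, where 17 of 20 gland and 6 of 18 keratinocyte markers were raised. It had 271 cells with disease and metformin, 4 with disease, 656 with metformin and 120 in healthy gingiva.

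The all-cell values of Crabp1 and Aldh1a3 rested on few barcodes. In healthy gingiva 1 barcode of cluster 12, led by S100a5, Gng13 and Scgb1c1, held 143 Crabp1 UMIs, 26.8% of that library's. With disease, 1 barcode of cluster 12 held 92 Aldh1a3 UMIs, 57.5% of that library's, with Krt19, Tm4sf1 and Krt7 among its leading genes, and 1 barcode held 75.9% in healthy gingiva. Without cluster 12, Crabp1 over all cells was at -2.95 with metformin over healthy gingiva, against -3.53 with it, and Aldh1a3 at -0.27, against -2.38 with it. That exclusion, like those of cluster 2, was chosen after the values were seen.

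Within cluster 2, barcodes were split by H19, a maternally expressed long noncoding RNA of growing tissue, and Crabp1 was higher beside it in the disease and healthy libraries. This split was chosen after Crabp1-rich barcodes had been seen to hold H19. In barcodes with an H19 UMI, Crabp1 stood at 8.73 CPM with disease and metformin (7 barcodes), 40.8 with disease (37), 5.02 with metformin (18) and 134 CPM in healthy gingiva (40). In those without one it stood at 9.40, 5.58, 3.12 and 4.41 CPM, in 38, 110, 73 and 44 barcodes of the same libraries. The intervals with and without H19 overlapped with disease and metformin and with metformin. The healthy library was high among barcodes with H19, and the other barcodes of healthy gingiva lay within the range of the other libraries.

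Adh7 was higher beside H19 in each library. It stood at 69.9 CPM with an H19 UMI and 32.3 without with disease and metformin, 140 and 56.8 with disease, 103 and 25.5 with metformin, and 216 and 35.9 CPM in healthy gingiva. Crabp2 likewise stood at 48.9 CPM with an H19 UMI and 24.7 without in disease with metformin, 41.4 and 21.7 in disease, 28.1 and 9.11 with metformin, and 51.0 and 3.78 CPM in healthy gingiva. Over the 4 libraries Fabp5 was at 4079 CPM with and 2704 CPM without an H19 UMI. Barcodes with more UMIs are likelier to show H19, and the part of depth in these values was not tested. Crabp1, Adh7 and Crabp2 were each highest in barcodes of healthy gingiva with H19, Crabp2 with an interval that overlapped those of disease and of disease with metformin.

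**Figure D5:**
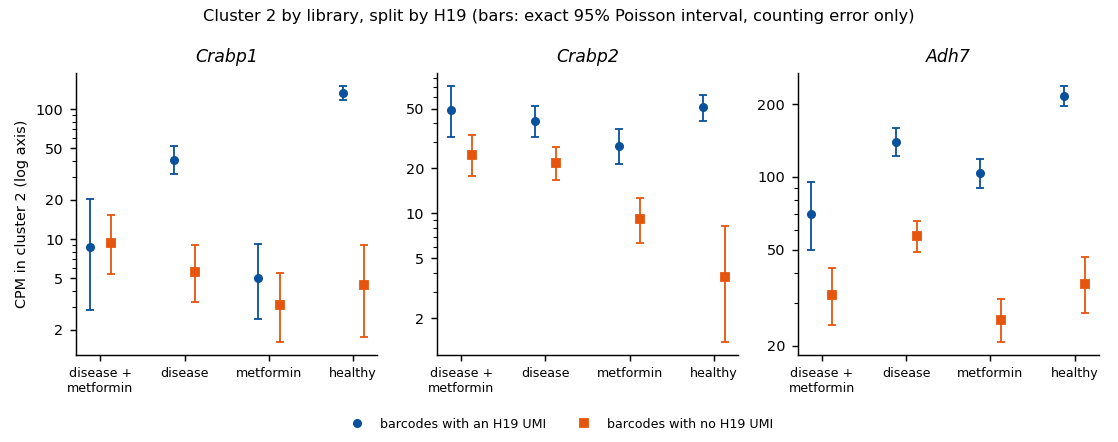
Points give CPM, on a log axis, of Crabp1, Crabp2 and Adh7 in cluster 2 of each library, in barcodes with at least 1 H19 UMI and with none, with exact 95% Poisson intervals. Crabp1 reaches 134 CPM in healthy barcodes with H19 and stays at or below 9.40 CPM in barcodes without it in every library.

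In gland-like cells Fabp5 had 114 UMIs with disease and metformin, 46 with disease, 460 with metformin and 66 in healthy gingiva, or 17.0, 12.4, 78.8 and 15.0 CPM. The metformin library was the high one, 5.26-fold above healthy gingiva (2.40, 2.02 to 2.79), with 1 barcode holding 22.2% of its UMIs. Gland-like cluster 14 stood at 172 CPM with metformin and 17.3 CPM in healthy gingiva, and cluster 0 at 14.0 and 10.7 CPM. Keratinocyte-like cells of the metformin library held Fabp5 at 5178 CPM, and the part of free RNA or doublets in the gland-like value was not tested. The other members had at most 7 UMIs in the gland-like cells of a library.

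Fibroblast-like cells numbered 10 with disease and metformin, 59 with disease, 46 with metformin and 20 in healthy gingiva. They held 1, 47, 33 and 11 Crabp1 UMIs, or 13.5, 124, 81.5 and 89.4 CPM, and the first of these rests on 1 UMI. With metformin over healthy gingiva the Crabp1 log2 ratio was -0.13 in fibroblast-like cells, against -4.18 in keratinocyte-like cells; the difference between the classes was not tested. Adh7 stood at 26.9, 47.5, 49.4 and 40.6 CPM in fibroblast-like cells, from 2 to 20 UMIs a library, with overlapping intervals.

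The rest of the pathway was read from 8 lists that together name 126 symbols, 125 of them in the files, in keratinocyte-like cells. Of the retinol uptake, transport and esterification genes, 4 of 8 measured were at least 1.5-fold higher and 2 lower with metformin over healthy gingiva (median log2 ratio 0.53), where 5.61% of all genes were higher and 21.6% lower (-0.22). With disease over healthy gingiva it was 0 and 2 of 8 (-0.12), against 7.08% and 6.49% of all genes (0.01). With disease and metformin over disease it was 3 and 1 of 7 (0.35), against 3.92% and 13.4% (-0.13), and with disease and metformin over metformin 1 and 1 of 8 (-0.03), against 8.91% and 6.70% (0.09). These all-gene values are also the background of the lists that follow. Rbp7, a retinol-binding protein, was at 105 CPM with metformin and 62.7 in healthy gingiva, and at 93.4 with disease and metformin and 58.0 with disease. Ces1d, a carboxylesterase able to split retinyl esters, was at 7.62 CPM with metformin and 30.2 in healthy gingiva.

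Among the retinol and retinaldehyde oxidoreductases, which include Adh7, 4 of 16 measured genes were lower and none higher with metformin over healthy gingiva, where 21.6% and 5.61% of all genes were. With disease over healthy gingiva 1 of 16 was lower and none higher, and with disease and metformin over disease 3 of 15 were lower and none higher. In disease with metformin over metformin, 1 of 15 was higher and 2 lower, and the 4 medians lay between -0.08 and 0.09. Rdh12, a retinaldehyde reductase with 95.3% of its UMIs in keratinocyte-like cells, stood at 17.8 CPM with disease and metformin, 28.3 with disease and 36.2 CPM with metformin. Of 9 measured aldehyde dehydrogenases 1 was lower with metformin over healthy gingiva (-0.22), 1 higher with disease over healthy gingiva (-0.05), 4 lower with disease and metformin over disease (-0.56) and 2 lower with disease and metformin over metformin (-0.25). The sister enzymes of Aldh1a3 lay elsewhere: 96.2% of Aldh1a2 UMIs were in fibroblast-like and 77.9% of Aldh1a1 UMIs in gland-like cells. Of the retinoic acid clearance genes 4 were measured in each comparison, with 1 lower with metformin over healthy gingiva, 1 lower with disease and metformin over metformin, none past 1.5-fold in the other 2 comparisons, and medians from -0.17 to 0.04.

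The receptors and cofactors that retinoic acid acts through had 14 measured genes. With metformin over healthy gingiva 4 were lower and none higher (-0.45), where 21.6% and 5.61% of all genes were (-0.22). With disease over healthy gingiva 1 was lower and none higher (0.00), with disease and metformin over disease 3 lower and 1 higher (-0.23), and with disease and metformin over metformin 2 lower and 1 higher (0.17). Rarb, a retinoic acid receptor that is itself induced by retinoic acid, had 2 UMIs with disease and metformin, 55 with disease, 70 with metformin and 59 in healthy gingiva, so its low value stood in the disease plus metformin library (0.540 CPM against 8.45 with disease). Of 13 measured genes known to respond to retinoic acid, Crabp2 among them, 3 were higher and 3 lower with metformin over healthy gingiva (-0.08), and none higher and 3 lower with disease over healthy gingiva (-0.29). Of 11 measured with disease and metformin over disease, 1 was higher and 4 lower (-0.05), and with disease and metformin over metformin 2 of 13 were higher and 6 lower (0.01). Krt4 and Krt13, keratins of soft mucosa, were at -2.46 and -0.85 with disease and metformin over disease, and Krt4 at -2.58 with disease and metformin over metformin.

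The lipid binding protein family, which holds Crabp1, Crabp2 and Fabp5, had 3 of 8 measured genes higher and 2 lower with metformin over healthy gingiva (0.37), and none of 7 higher and 1 lower with disease over healthy gingiva (-0.11). In disease with metformin over disease it had 3 of 7 higher and 2 lower (0.24), and with disease and metformin over metformin 1 of 7 higher and 2 lower (-0.17). Rbp2, a retinol carrier known from intestine, stood at 14.0 CPM with disease and metformin and 7.06 CPM with disease. Of 23 fatty acid uptake, activation and PPAR genes, 1 was higher and 4 lower with metformin over healthy gingiva (-0.18), where 5.61% and 21.6% of all genes were (-0.22), and none higher and 2 lower with disease over healthy gingiva (-0.09). Among the same genes 2 were higher and 6 lower with disease and metformin over disease (-0.24), and with disease and metformin over metformin 3 were higher and 4 lower (-0.05). Ppara, a fatty acid receptor, was at 2.15 CPM with metformin and 7.27 in healthy gingiva, and at 2.43 with disease and metformin and 9.83 with disease. Elovl4, which makes very long fatty acids for the skin barrier, was at 4.86 CPM with disease and metformin and 15.9 CPM with metformin.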

How the data were processed

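Per the submitters' processing notes, reads were converted with bcl2fastq and counted with Cell Ranger 7.0.1 on build mm10. The deposited values are raw counts of UMIs per gene and barcode, with no normalization by the authors. The 32285 features carry 32245 symbols, and rows under the 40 shared symbols were summed. Barcodes under 200 genes or over 20% mitochondrial UMIs were dropped. Scrublet called 5 of 7134 (0.0701%), so it has not worked, and doublets remain. Counts were scaled to 10000 a cell and clustered in scanpy 1.11.5 (2000 variable genes, 30 principal components, 15 neighbours, Leiden resolution 1). Clusters were named from 13 of 18 marker lists, and the other 5, of epithelial layers and cell cycle, were only counted. UMIs were summed per class and library and given as CPM with exact Poisson intervals; ratios have conditional exact binomial intervals. A gene was measured with at least 20 UMIs over the 2 libraries and counted as apart at 1.5-fold. Intervals treat UMIs as independent and are too narrow where few barcodes hold a gene. Total UMIs ran from 12507787 to 22333858. TMM (edgeR 4.0.16) and DESeq2 1.42.0 factors served only as alternative scalings. Members, lists and tests were chosen with earlier results of these data known. List genes were named from those with at least 50 UMIs and the largest folds, up to 3 a direction. The ratio procedure was tested on simulated data. Positions come from a GRCm38 annotation and promoters from RefSeq on GRCm38.p6, which matched 2 of the 5 members.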

Additional observations from a re-analysis of the deposited data

Results flagged for a closer look

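Crabp2 stood out because metformin's direction was opposite in healthy and in diseased gingiva. In keratinocyte-like cells its log2 ratio was 0.66 with metformin over healthy gingiva and -0.68 with disease and metformin over disease. Over all cells the same ratios were 0.74 and -1.59. Each value compares 1 library with 1 library, and the difference between the 2 ratios was not tested. Without cluster 2 the ratios were 0.88 and -1.72, and inside cluster 2 they were -0.94 and 0.10. With a common cluster makeup they were -0.048 and -0.82 and so no longer opposite. The -0.68 stood at -0.56 under TMM and -0.55 under DESeq2 scaling, short of 1.5-fold.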

How the results depend on the processing

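Of 436 member values recomputed under alternatives, 312 stayed within their counting interval, 115 moved beyond it and 9 reversed; in keratinocyte-like cells, of 232 values, 167 stayed, 58 moved and 7 reversed. Crabp1 in keratinocyte-like cells ranged from -4.70 to -2.60 with metformin over healthy gingiva, from -2.71 to -1.87 with disease over healthy gingiva, and from 0.99 to 1.62 with disease and metformin over metformin. With every cell weighted equally, Crabp1 (0.45) and Aldh1a3 (0.49) turned to higher in keratinocyte-like cells with disease and metformin over disease; over all cells Fabp5 turned to -0.076 with metformin over healthy gingiva and Adh7 to 0.029 with disease and metformin over disease. With each library set to 1 common keratinocyte makeup, Crabp2 turned to -0.048 with metformin over healthy gingiva and Aldh1a3 to 0.82 with disease and metformin over disease. Without cluster 2, an exclusion added after seeing the data, Crabp1 with disease and metformin over disease turned to 0.16. Assigning cells by their own markers turned Aldh1a3 with disease over healthy gingiva to -0.47, and to -0.36 with no cell filter. The cause of these changes was not tested.

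Counts of members at least 1.5-fold apart in keratinocyte-like cells moved as follows. With disease over healthy gingiva the count was 1 in place of 2 under the stricter cell filter, no cell filter, barcodes with Malat1 and mitochondrial UMIs only, no top barcode, clusters made without members and list genes, own markers, and a minimum of 100 UMIs. With disease and metformin over disease it was 0 in place of 3 under equal cell weights, TMM, DESeq2 factors and 2-fold. At 2-fold it was 1 in place of 3 with metformin over healthy gingiva. With disease and metformin over metformin it was 1 in place of 2 at 2-fold and at a minimum of 100 UMIs, and 4 without cluster 2. Over all cells with metformin over healthy gingiva it was 2 in place of 4 at 2-fold and without the top barcode. TMM moved keratinocyte-like log2 ratios by 0.23 with metformin over healthy gingiva, 0.12 with disease and metformin over disease and -0.12 with disease and metformin over metformin. No paired analysis was possible because each group is 1 library. Depth limits Aldh1a3 most, with 32 keratinocyte-like UMIs in 4 libraries.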
